A study of Mus musculus with 6 samples.

Results

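The 8 genes described here encode acetylcholine receptors of the mouse forebrain: the muscarinic receptors Chrm1, Chrm2, Chrm3 and Chrm4 and the nicotinic subunits Chrna4, Chrna5, Chrna7 and Chrnb2. They were chosen by name, with earlier results of these data known. All 8 were found among the 18160 genes of the deposited table through their Ensembl identifiers. Stranded sequencing of poly(A) RNA was done on prefrontal cortex taken at postnatal day 56 from mice of the C57BL/6J strain. Group HET held 3 samples heterozygous for a Cyfip2 mutation, whose allele the labels do not describe further, and group WT held 3 wild-type samples. CYFIP2 is a subunit of the actin-regulating WAVE complex, and the design asks how the heterozygous mutation changes gene expression in this tissue. The labels do not state whether the 3 samples of a group were 3 animals, and a p-value here reflects the spread between samples, which may be technical.

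Acetylcholine reaches the prefrontal cortex mainly from neurons of the basal forebrain and tunes attention and arousal there. Muscarinic receptors are G-protein-coupled receptors. Those encoded by Chrm1 and Chrm3 act through Gq and phospholipase C, and those encoded by Chrm2 and Chrm4 act through Gi/o and lower cyclic AMP. Nicotinic receptors are ion channels built of several subunits: Chrna4 and Chrnb2 together make the high-affinity channel of the cortex, Chrna5 joins it as an accessory subunit in deep layers, and Chrna7 makes channels by itself.

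In each muscarinic gene a stretch of 51 coding bases is given around the Asp-Arg-Tyr codons (capitals) at the end of the third transmembrane segment, where these receptors engage their G protein. Sequences are from the GENCODE M21 transcripts (GRCm38), 5′ to 3′ on the coding strand.
Chrm1: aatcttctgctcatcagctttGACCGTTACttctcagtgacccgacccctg
Chrm3: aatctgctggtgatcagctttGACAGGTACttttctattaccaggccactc
Chrm2: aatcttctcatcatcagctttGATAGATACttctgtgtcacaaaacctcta
Chrm4: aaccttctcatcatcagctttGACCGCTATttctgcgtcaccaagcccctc
The Gi/o-coupled pair Chrm2 and Chrm4 was the most alike, with 41 of 51 bases identical (80.4%), and the Gq-coupled pair Chrm1 and Chrm3 shared 38 of 51 (74.5%). Across the classes, Chrm1 shared 39 of 51 bases with Chrm4 (76.5%) and 38 with Chrm2 (74.5%), and Chrm3 shared 36 with each (70.6%). Identity in bases over this stretch therefore did not follow G-protein coupling throughout. It also counts base differences that leave the amino acid unchanged, and the encoded residues, which engage the G protein, were not compared.

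In the nicotinic genes a stretch of 48 coding bases covers the paired cysteine codons (capitals) of the acetylcholine-binding loop, which define alpha subunits. Chrnb2, a beta subunit, has no such pair, and its aligned stretch has no capitals.
Chrna4: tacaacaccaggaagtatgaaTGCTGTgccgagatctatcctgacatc
Chrna5: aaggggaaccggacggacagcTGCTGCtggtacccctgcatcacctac
Chrna7: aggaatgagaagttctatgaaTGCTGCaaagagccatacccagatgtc
Chrnb2: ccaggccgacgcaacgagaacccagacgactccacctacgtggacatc
The aligned Chrna5 stretch has the cysteine pair although this subunit is known to add to channels without forming a standard binding site.

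Cyfip2 was checked first. Its normalized count was 28834 ± 644 in HET samples and 44752 ± 1369 in WT samples (SD, n = 3 each). Every HET library lay below every WT library, though the labels state no expected level. Values are normalized counts, read estimates scaled between samples; they summed to 36.6 to 37.1 M in HET samples and 36.4 to 37.0 M in WT samples. From the spacing of the lowest values the depth behind them was about 32.0 to 37.3 M reads in HET samples and 27.1 to 47.5 M in WT samples, which is an estimate. On that estimate Chrm1 rested on 5447 to 9522 reads per sample and Chrna5 on 44.7 to 111, so Chrna5 is the member measured least precisely. Genes with a mean of at least 10 normalized counts over the 6 samples were tested, and 15151 genes, among them all 8 members, passed that filter. Cortical neuron markers were present: no gene of the upper-layer, deep-layer or interneuron marker lists was at 0 in any sample.

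No receptor gene passed the test of a difference between the genotypes. Of the 8 members, 0 had an adjusted p under 0.05 in limma-trend, which fits each gene linearly and moderates its variance across genes, against 0.0132% of all tested genes. Without adjustment 1 member, Chrm1, had a p under 0.05, where 5.07% of all tested genes did. In Chrm1 every HET value lay below every WT value, a pattern found in 5.3% of all tested genes. In Chrm3 every HET value lay above every WT value, as in 5.15% of all tested genes. HET lay below WT in 3 of 8 members, against 49.2% of all tested genes. The median log2 fold change, HET over WT, was 0.065 over the 8 members and 0.0020 over all tested genes, and the largest in size was 0.12.

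**Figure D1:**
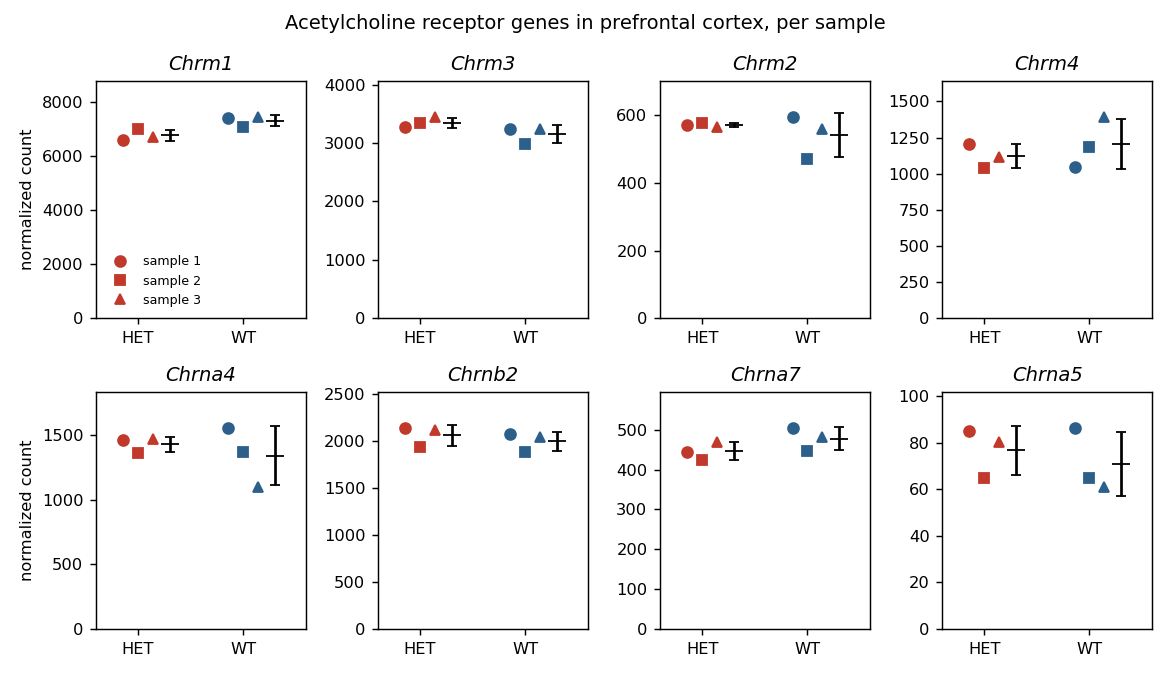
Normalized counts (linear axes from 0) of the 8 receptor genes in each HET sample (left, red) and WT sample (right, blue), with marker shape giving the sample number and bars giving the mean ± SD of 3 samples. The genotypes are separate in Chrm1, at 6586 to 6982 in HET and 7072 to 7435 in WT, and narrowly in Chrm3, and overlap in the other members.

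Chrm1 encodes the main muscarinic receptor of cortical pyramidal neurons. The gene (ENSMUSG00000032773) spans bases 8663789 to 8683587 of chromosome 19, plus strand (GRCm38). Chrm1 had normalized counts of 6586, 6982 and 6717 in HET samples 1, 2 and 3, and 7418, 7072 and 7435 in WT samples 1, 2 and 3. The genotypes did not overlap, and the gap between the highest HET value and the lowest WT value was small beside the range within either genotype. Expressed as a share of WT, HET Chrm1 was at 92.5% (95% interval 85.6% to 99.96%). In limma-trend its log2 fold change was -0.11 ± 0.050 (SE; unadjusted p 0.049, adjusted p 0.95). An exact two-sided permutation test gave p = 0.1, and no smaller p is possible with 3 samples against 3.

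Chrm3, the second Gq-coupled member, lies on the minus strand of chromosome 13 (ENSMUSG00000046159, 9875486 to 10360847). Its values were 3268, 3336 and 3443 in HET samples 1 to 3, against 3246, 2981 and 3245 in WT samples 1 to 3. All HET values were above all WT values, but HET sample 1 exceeded WT samples 1 and 3 by less than the spread within each genotype. For Chrm3 the log2 difference was 0.086 ± 0.057 (SE; interval -0.041 to 0.21), the limma-trend adjusted p 0.95 and the exact permutation p 0.1. Without WT sample 2 the difference was 0.045. Since Chrm1 was the lower and Chrm3 the higher of the pair in HET, their ratio separated the genotypes too. Per kilobase of exon, Chrm3 stood at 0.515, 0.496 and 0.532 of Chrm1 in HET samples and at 0.454, 0.437 and 0.453 in WT samples. This ratio was formed after the values of both genes were known and was not tested.

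Chrm2 encodes a Gi/o-coupled receptor that also serves as an autoreceptor on cholinergic terminals (chromosome 6, plus strand, 36388084 to 36528414, ENSMUSG00000045613). It was at 570, 577 and 566 normalized counts in HET samples, against 594, 470 and 559 in WT samples. HET values were close together and inside the WT range, which WT sample 2 widened at its low end. Chrm2 had a log2 fold change of 0.084 ± 0.095 (SE; interval -0.13 to 0.30), and it was -0.014 without WT sample 2. Chrm4, the other Gi/o-coupled member, is best known from striatal projection neurons (chromosome 2, plus strand, 91927249 to 91928688, ENSMUSG00000040495). Its counts were 1208, 1041 and 1114 in HET samples and 1045, 1186 and 1391 in WT samples. WT samples held both the highest value, sample 3, and a value next to the lowest, sample 1. For Chrm4 it was -0.10 ± 0.10 (SE; interval -0.33 to 0.13), and 0.0068 without WT sample 3. Adjusted p values were 0.98 for Chrm2 and 0.97 for Chrm4 by limma-trend.

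Chrna4 encodes the ligand-binding partner of Chrnb2 in the high-affinity nicotinic receptor (chromosome 2, minus strand, 181018380 to 181043546, ENSMUSG00000027577). Its counts were 1458, 1360 and 1465 in HET samples and 1555, 1365 and 1101 in WT samples. WT samples spanned a range that enclosed all HET values, with sample 3 alone far below the rest. Chrna4 had a log2 fold change of 0.10 ± 0.11 (SE; interval -0.14 to 0.35), and it was -0.030 without WT sample 3. Chrnb2 (chromosome 3, minus strand, 89746195 to 89764632, ENSMUSG00000027950) was at 2144, 1940 and 2117 in HET samples and 2075, 1884 and 2045 in WT samples. The genotypes overlapped, and sample 2 was the lowest of each. Its log2 fold change was 0.047 ± 0.065 (SE), with an interval of -0.099 to 0.19, and it was 0.0037 without WT sample 2 and 0.092 without HET sample 2. Adjusted p values were 0.97 for Chrna4 and 0.99 for Chrnb2 by limma-trend.

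Chrna7 encodes the subunit of fast, calcium-permeable homomeric channels (chromosome 7, minus strand, 63098692 to 63212569, ENSMUSG00000030525). It was at 444, 425 and 469 normalized counts in HET samples, against 505, 447 and 483 in WT samples. HET values lay low, but the highest of them passed the lowest WT value. Chrna7 had a log2 fold change of -0.10 ± 0.085 (SE; interval -0.29 to 0.091), a limma-trend adjusted p of 0.96 and an exact permutation p of 0.2. It was -0.059 without WT sample 1 and -0.065 without HET sample 2. Chrna5 (chromosome 9, plus strand, 54980880 to 55007779, ENSMUSG00000035594) was the scarcest member, at 85.0, 65.1 and 80.5 in HET samples and 86.5, 65.0 and 61.1 in WT samples. Each genotype held both high and low values of Chrna5. Its log2 fold change was 0.12 ± 0.19 (SE), with an interval of -0.30 to 0.55, so HET levels from 81.3% to 145.9% of WT lay inside it, and the limma-trend adjusted p was 0.99. With 1 sample left out the log2 fold change of Chrna5 ranged from 0.026 without WT sample 3 to 0.27 without WT sample 1.

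**Figure D2:**
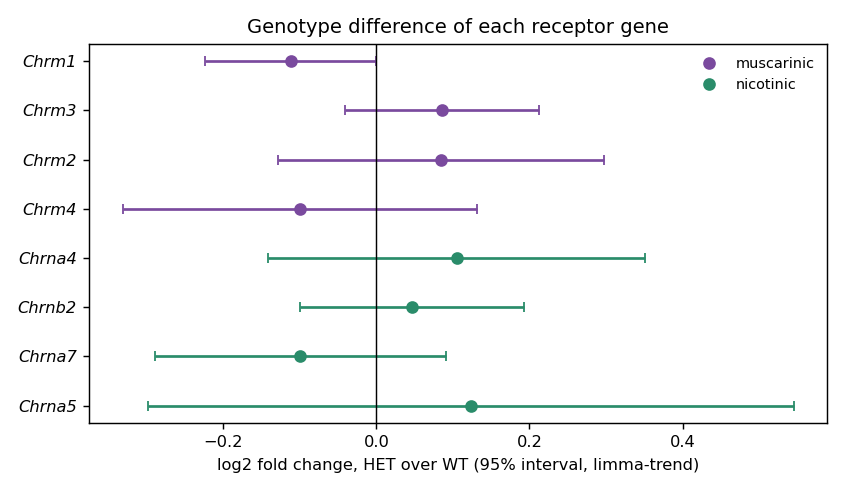
Log2 fold change of each receptor gene, HET over WT (horizontal axis), with 95% intervals from limma-trend on 3 samples per genotype; muscarinic genes are purple and nicotinic genes green. The interval of Chrm1, -0.22 to -0.00061, ends just below 0, the other 7 include 0, and that of Chrna5 is the widest.

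Levels of different genes were compared per kilobase of annotated exon. The order was Chrm1 at 1042 ± 31.1 in HET and 1127 ± 31.6 in WT, Chrm4 at 778 ± 58.1 in HET and 838 ± 121 in WT, and Chrm3 at 536 ± 14.1 in HET and 505 ± 24.5 in WT (normalized counts per kb, SD, n = 3 each). Below these came the pair Chrna4 and Chrnb2, at 276 and 243 normalized counts per kb over the 6 samples. Chrna7 followed at 103, Chrm2 at 91.8 and Chrna5 at 23.6. Neighbours in this order did not overlap over the 6 samples except in 2 places: Chrna4 and Chrnb2, and Chrna7 and Chrm2, which each kept their order in 5 of 6 samples. Chrm1 stood above 89.9% of all tested genes per kb, Chrnb2 above 59.4% and Chrna5 above 15.9%. Both the muscarinic and the nicotinic group thus spanned abundant and scarce mRNAs.

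Gene length bears on this order. The annotated Chrm4 model is a single exon of 1440 bases, which is its coding sequence with its stop codon and nothing else, whereas the merged exons of Chrm1 hold 6487 bases and those of Chrnb2 8380. By plain normalized count Chrm4, at 1164 over the 6 samples, stood below Chrm3, Chrnb2 and Chrna4. With the longest transcript as the length, Chrna4 and Chrnb2 changed places, and with the mean length of coding transcripts, Chrm3 and Chrm4 did. Levels of Chrm4 beside other genes therefore depend on a gene model without untranslated regions, while its comparison between genotypes does not.

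**Figure D3:**
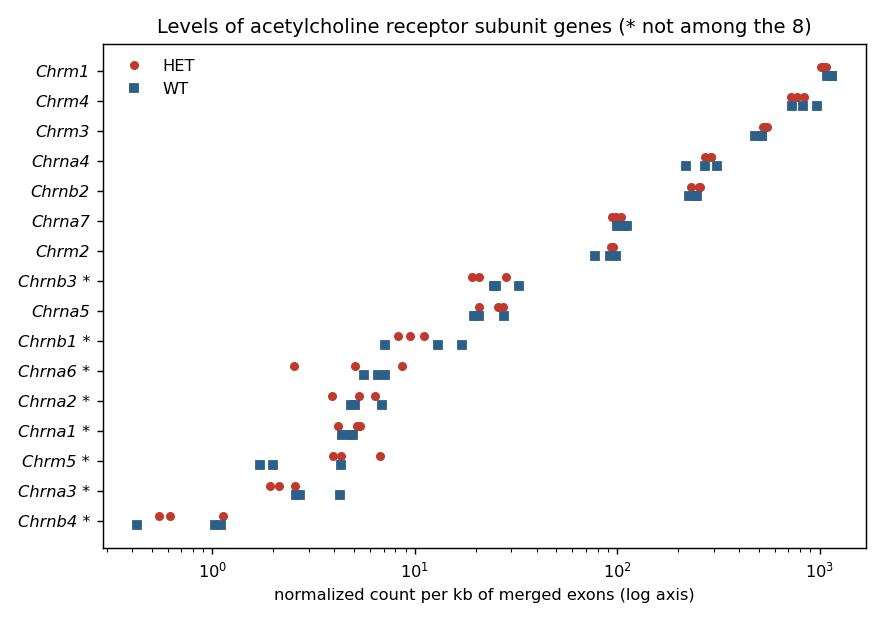
Normalized counts per kb of merged exons (log axis) of 16 acetylcholine receptor subunit genes, with HET samples as red circles above WT samples as blue squares; asterisks mark genes outside the 8. Means over the 6 samples run from 1084 for Chrm1 to 0.81 for Chrnb4, and Chrna5 lies level with Chrnb3; Chrne, at 0 in 2 samples, is not drawn.

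Among the other receptor subunits, 9 of the 13 listed were in the table, and 6 of them passed the filter on low values. Chrnb3, at 144 ± 30.6 normalized counts in HET and 176 ± 28.7 in WT, was the highest of these, and per kb its range overlapped that of Chrna5. Chrna3, which neighbours Chrna5 on chromosome 9, was at 10.2 to 13.50 in HET samples and 13.58 to 22.6 in WT samples. These barely parted, at counts near the filter, with a limma-trend adjusted p of 0.95. HET values below all WT values were found in 5.3% of all tested genes. Chrm5, the remaining muscarinic receptor, was under the filter at 6.31 to 10.8 in HET samples and 2.75 to 6.93 in WT samples. Its level rests on about 2.02 to 10.8 reads per sample, and the exact permutation p was 0.3. The muscle subunits Chrna1 and Chrnb1 were at 18.4 to 23.5 and 20.8 to 28.2 in HET samples and at 19.1 to 21.8 and 18.1 to 43.1 in WT samples. None of the 6 tested passed the threshold by limma-trend, and 5 lay below WT.

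The make-up of each receptor class is given as shares. Of the summed per-kb level of the muscarinic members, Chrm1 made up 42.5% ± 1.65 in HET and 44.1% ± 1.95 in WT, and Chrm4 31.7% ± 2.10 in HET and 32.7% ± 3.19 in WT (SD, n = 3 each). Chrm3 took 21.2%, 22.0% and 22.4% in HET samples, against 20.9%, 19.3% and 19.1% in WT samples, again without overlap. Chrm2 held 3.85% ± 0.0651 in HET and 3.49% ± 0.410 in WT. The Gq-coupled members together stood at 1.65, 1.97 and 1.83 times the Gi/o-coupled ones in HET samples and at 2.02, 1.74 and 1.57 times in WT samples. That balance varied as much within a genotype as between them. Its size depends on the length used for Chrm4: without length correction Chrm4 made up 9.69% and Chrm2 4.63% of the muscarinic level. In the nicotinic class Chrna4 and Chrnb2 took 43.5% ± 0.362 and 37.7% ± 0.348 in HET, against 41.9% ± 4.10 and 37.8% ± 3.14 in WT. Chrna7 made up 14.7% to 15.4% in HET samples and 16.1% to 18.2% in WT samples, without overlap, although its counts overlapped. Its highest share was in WT sample 3, where the Chrna4 share was lowest, at 37.2%. Chrna5 held 3.75% ± 0.345 in HET and 3.55% ± 0.363 in WT. No p-value is given for these shares, because they are scores over chosen genes. Single-gene values did not overlap, in either direction, in 10.5% of all tested genes, and no such rate was formed for shares.

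**Figure D4:**
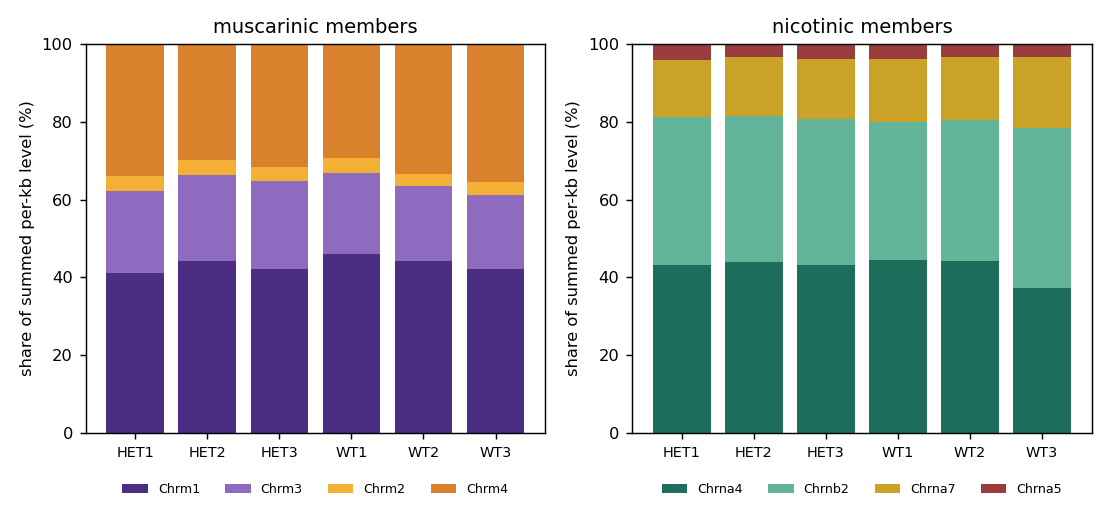
Share (percent, 0 to 100) of each gene in the summed per-kb level of the 4 muscarinic (left) and 4 nicotinic (right) members, one bar per sample with HET samples 1 to 3 before WT samples 1 to 3. Chrm1 and Chrm4 hold most of the muscarinic level and Chrna4 and Chrnb2 most of the nicotinic level in every sample; WT sample 3 has the smallest Chrna4 share, 37.2%, and the largest Chrm4 share, 35.5%.

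Variation among samples was uneven over the members. Chrna5, Chrna4 and Chrm4 varied most, with an SD of the log2 level over the 6 samples of 0.22, 0.17 and 0.16, while Chrm3 and Chrm1 varied least, at 0.069 and 0.072. For Chrna4 the standard error of the fold change, 0.11, was above the median of 0.072 over 1609 genes within 1.25-fold of its level, and for Chrm4 it was 0.10 against 0.075 over 1634 genes. The Chrna5 error of 0.19 was close to the median of 0.18 at its level. WT sample 1 held the highest value of 4 members and WT sample 2 the lowest of 3.

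Ratios between the subunits of the high-affinity nicotinic receptor are given per sample. Chrna5 and Chrna4 were both highest in WT sample 1 and lowest in WT sample 3. Chrna5 stood at 0.0937, 0.0768 and 0.0883 of Chrna4 per kb in HET samples, and at 0.0894, 0.0765 and 0.0892 in WT samples. Over the 6 samples this ratio stayed between 0.0765 and 0.0937. For Chrnb2 over Chrna4 the ratio was 0.881, 0.855 and 0.866 in HET samples and 0.800, 0.827 and 1.11 in WT samples. WT sample 3 alone had more Chrnb2 than Chrna4 per kb, and in the other 5 samples the ratio lay between 0.800 and 0.881.

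WT sample 3 also held the extreme sum in both lists of cortical layer markers. Deep-layer markers summed to 10836 to 11676 normalized counts in HET samples and 9625 to 10860 in WT samples. All 12 of 12 tested genes were above WT in HET, and the lowest sum was in WT sample 3. WT sample 1 had the next lowest sum, 10060, yet held the highest Chrna4 and Chrna5 values. Upper-layer markers summed to 39371 to 42796 in HET samples and 42754 to 50454 in WT samples, with 8 of 10 below WT and the highest sum in WT sample 3. No marker of either list was at 0. Whether the layer balance of the dissected pieces has a part in the values of Chrna4, Chrna5 and Chrm4 was not tested. In bulk tissue, fewer cells of a type and less RNA per cell cannot be told apart.

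Markers of striatal projection neurons, which express Chrm4, summed to 14583 to 15400 in HET samples and 16738 to 17572 in WT samples, with 8 of 11 tested genes below WT. Drd2, one of their defining genes, was at 17.8 to 33.8 in HET samples and 20.6 to 48.3 in WT samples. The WT sum was lowest in sample 3, where Chrm4 was highest. Interneuron markers, part of the cells that express Chrm2, summed to 45692 to 46484 in HET samples and 42512 to 45849 in WT samples. Of these 12 genes, 9 lay above WT. The lowest sum was in WT sample 2, where Chrm2 was lowest, at 470. WT sample 3 had a nearby sum, 43190, with Chrm2 at 559. Six3, a striatal marker under the filter, was at 0 in WT sample 3. The part of either cell type in the receptor values was not tested.

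Astrocyte markers lay above WT in 8 of 10 genes and summed to 200280 to 219163 in HET and 188051 to 220622 in WT. Microglial markers did so in 7 of 10, at 13409 to 14258 in HET and 12111 to 14930 in WT, and endothelial and pericyte markers in 9 of 10, at 12804 to 14361 in HET and 11293 to 13805 in WT. Meningeal markers were above WT in 9 of 10, at 27045 to 31594 in HET and 24813 to 30891 in WT. Oligodendrocyte markers were below WT in 12 of 12, at 132898 to 144067 in HET and 136291 to 189764 in WT, the highest in sample 2. No marker of these 5 lists was at 0, and their part in the receptor values was not tested.

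Genes whose profiles over the 6 samples were most like those of the 3 most variable members were found by the root mean square difference of centred log2 levels, over 12839 genes with a mean of at least 50. For Chrna5 they were Zfp551 and Zdhhc15, at 0.048 and 0.053, beside a median of 0.22 over all candidates. Nfatc2ip and Slc41a3 were nearest to Chrna4, at 0.034 and 0.037, and Tspan12 and Tmem145 to Chrm4, at 0.034 and 0.035. The likeness is a description only, over 6 samples that share their scaling.

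Acetylcholine is made by Chat, packed into vesicles by Slc18a3 and recycled as choline by Slc5a7, and their mRNAs lie in the cell bodies of cholinergic neurons. Chat was at 16.9, 8.45 and 21.9 normalized counts in HET samples, against a WT mean of 16.9 ± 1.89 (SD, n = 3). Slc18a3 stood at 8.38 to 13.7 in HET and 13.5 to 15.6 in WT, and Slc5a7 at 27.8 to 39.6 in HET and 29.8 to 38.4 in WT. The list of basal forebrain and habenular neurons, which shares these 3 genes, summed to 301 to 390 in HET samples and 250 to 335 in WT samples. Most of that sum was Tac1, at 210 to 306 in HET samples and 165 to 236 in WT samples, and 3 of its 5 tested genes lay below WT. Its defining gene Isl1 was at 0 in 4 of 6 samples. Ache, the enzyme that breaks acetylcholine down, was far more abundant, at 1814 ± 31.8 in HET and 1845 ± 56.1 in WT (SD, n = 3 each). Of the 9 genes of synthesis, transport and breakdown, 0 passed the threshold in either direction by limma-trend, and 5 lay below WT. The smallest unadjusted p values were those of Bche, butyrylcholinesterase, with a log2 fold change of 0.26 ± 0.17 (SE), and Colq, the collagen tail of acetylcholinesterase, at -0.26 ± 0.22 (SE).

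Among the 5 lists of cholinergic genes, the smallest p values were those of chaperones and Ly6 modulators of nicotinic receptors. Lynx1 encodes a membrane-anchored prototoxin that damps nicotinic receptors in the adult cortex. Its normalized count was 20386, 19291 and 19414 in HET samples, against 23843, 22410 and 21912 in WT samples. Every HET value lay below every WT value, as in 5.3% of all tested genes. Its log2 fold change in limma-trend was -0.21 ± 0.052 (SE; unadjusted p 0.0029, adjusted p 0.73), so Lynx1 did not pass the threshold over all genes. Ly6e, another Ly6-family gene, was at 6384, 6724 and 6969 in HET samples and 7227, 7706 and 7762 in WT samples. HET lay below WT without overlap here too, and the adjusted p was 0.85 by limma-trend.

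Ly6h and Lypd1, 2 more Ly6-family genes, lay on the other side. Ly6h was at 2992 ± 111 in HET and 2625 ± 126 in WT, and Lypd1 at 1371 ± 21.9 in HET and 1074 ± 197 in WT (SD, n = 3 each). On the log2 scale Ly6h differed by 0.19 ± 0.059 and Lypd1 by 0.37 ± 0.12 (SE), with adjusted p values of 0.85 and 0.88 by limma-trend. Neither overlapped between genotypes, and nor did Ric3, with HET higher in all 3 of these genes, as in 5.15% of all tested genes. Lypd1 shares 1202 exonic bases with Gpr39 on the opposite strand. The chaperone genes Ric3 and Tmem35a were at log2 fold changes of 0.073 and 0.050. Of the 10 genes of the list, 0 passed the threshold in either direction. Their median log2 fold change was 0.059. Of these 10 genes, 4 had an unadjusted limma-trend p under 0.05, 2 below and 2 above WT, against 5.07% of all tested genes. The list was chosen with earlier results of these data known, so this count is a description only and was not tested.

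**Figure D5:**
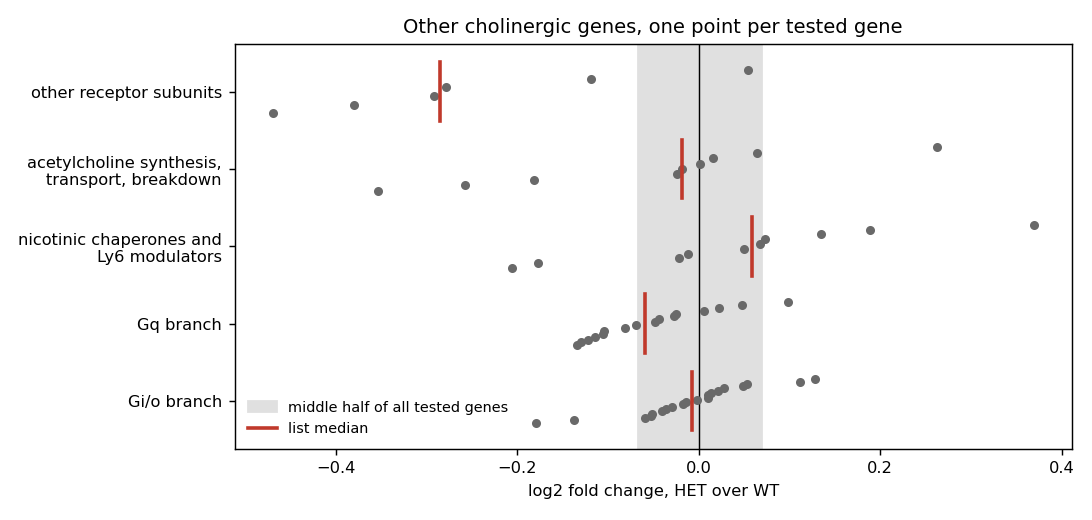
Log2 fold change, HET over WT, of the tested genes in 5 lists of cholinergic genes, one point per gene, with list medians in red and the range between the quartiles of all tested genes, -0.067 to 0.069, in grey. Chaperones and Ly6 modulators have points on both sides, from -0.21 for Lynx1 to 0.37 for Lypd1, and the Gq branch has 12 of 16 points below 0.

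Downstream of the muscarinic receptors, 0 of 16 tested genes of the Gq branch and 0 of 20 of the Gi/o branch passed the threshold by limma-trend. In the Gq branch 12 of 16 lay below WT, with a median log2 fold change of -0.059, beside 0.0020 over all tested genes. Plcb1, a phospholipase C of the branch, was at 10275, 10047 and 11130 normalized counts in HET samples and 12242, 10570 and 11445 in WT samples. The genotypes of Plcb1 overlapped. Its difference on the log2 scale was -0.12 ± 0.065 (SE), and limma-trend gave an adjusted p of 0.95. In the Gi/o branch 11 of 20 lay below WT and the median was -0.0077. Rgs8, a regulator of G-protein signalling, was at -0.14 ± 0.067 (SE) on the log2 scale, and Gnai2, a Gi alpha subunit, at 0.13 ± 0.066 (SE).

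Reads of a few members could be shared with other genes. Chrnb2 shares 1365 exonic bases with Adar on the opposite strand, and 1256 of its 8347 words of 31 bases occur in Adar read on that strand. The kit keeps strand, but the sources used here do not give whether the counting used it. On the opposite strand Chrm1 shares 329 exonic bases with Gm22820, and 340 of its 6472 words occur in other genes, Gm22820 among them, read on that strand, and Chrm2 shares 142 bases and 104 of its 6021 words with 9330158H04Rik. Chrna4 shared 22 of its 5049 words with Chrna2. On the same strand, no member had more than 0.494% of its words in another gene.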

How the data were processed

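Values were the normalized counts per gene (a signal, not raw counts) that the authors deposited for the 6 samples: read estimates scaled so that sample totals are nearly equal. The submitters' processing notes list Salmon 0.11.2, R 3.6.0, DESeq2 1.19.11 and GRCm38, with no role for any. The sources used here do not give the annotation release or the gene filter. Whole reads could not be recovered: within 0.1 reads, 82.2% to 87.1% of values up to 2 reads were whole, but only 21.0% to 41.5% of values of 10 to 20 reads. No count model was used.

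Identifiers were matched to symbols with GENCODE M21 (GRCm38; 18122 of 18160 matched), whose merged exons gave lengths. The test was limma 3.58.1 (trend; R 4.3.3) on log2(value + 1), with genotype as the only term, a mean of at least 10, and Benjamini-Hochberg adjustment over all 15151 tested genes at 0.05. This scale understates the change of low genes. Exact permutation tests (scipy 1.17.1) were two-sided. The procedure was tested on simulated data. No pair of samples shared a value above 0. The median absolute log2 difference was 0.105 to 0.136 in same-genotype pairs and 0.0943 to 0.138 in pairs of different genotype. Samples were therefore no more alike within a genotype than across genotypes. The labels give no batch.

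The members and lists were chosen with earlier results of these data known. Named genes were the members, Cyfip2, all receptor subunits, the 2 genes with the smallest p of each pathway list (except 1 that is not reported here), and for the 3 most variable members the 2 nearest profiles. Other list genes (Ly6h, Lypd1, Ric3, Tmem35a, Chat, Slc18a3, Slc5a7, Ache, Isl1, Tac1, Drd2, Six3) and Adar, Gpr39, Gm22820 and 9330158H04Rik were named after their values were seen. Alternatives were rescaling by a trimmed mean of M-values (TMM, computed in R), other variance models, filters, pseudocounts, lengths and thresholds, a block for the sample number, and each sample left out in turn.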

Additional observations from a re-analysis of the deposited data

How the results depend on the processing

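No member passed the threshold of 0.05 in any of the 14 alternative fits, nor at 0.1. Over all genes 2 were called, against 1 without the variance trend, 1 with a mean of at least 50, and 1 to 4 when leaving out 1 sample each (1 without HET sample 1, 4 without HET sample 3 or WT sample 1). Of 112 refits of the members' fold changes, 109 kept their direction. Most of these could hardly turn it. Other variance models, filters and the block leave a fold change as it is, and rescaling and pseudocounts moved it little. Only the refits with a sample left out bear on direction. The 3 that turned were Chrm2 without WT sample 2 (-0.014, range over left-out samples -0.014 to 0.15), Chrm4 without WT sample 3 (0.0068, range -0.20 to 0.0068) and Chrna4 without WT sample 3 (-0.030, range -0.030 to 0.22); the cause was not tested. Members with separate genotypes numbered 2, and 2 to 4 with a sample left out, the highest without WT sample 1, where 21.3% of all tested genes did not overlap (17.5% to 24.0% over the left-out samples, against 10.5% with all 6); this count and that of members below WT (3 to 4) were recomputed as alternatives chosen after seeing the data. The unadjusted p of Chrm1 lay between 0.033 and 0.14, and its adjusted p between 0.53 and 1.00. TMM rescaling shifted the median of all genes by -0.0011.

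Same-numbered samples were not paired by the labels, and the correlations of their deviations were 0.13, 0.12 and -0.0052; with the sample number as a replicate block 2 genes were called, none of them a member, and not every sample correlated best with its own number.

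Order and shares depend on the length used. With the longest transcript, the shares of Chrm1, Chrm3 and Chrm4 in the muscarinic level over the 6 samples were 40.4%, 27.0% and 29.0%, and those of Chrna4 and Chrna7 in the nicotinic level 37.1% and 20.2%. Without length correction Chrm1, Chrm2, Chrm3 and Chrm4 made up 58.6%, 4.63%, 27.1% and 9.69%, and Chrna4, Chrna5, Chrna7 and Chrnb2 34.9%, 1.86%, 11.7% and 51.5%. These moves follow from the lengths alone. Depth limits Chrna5 most among the members.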
